A study of Mus musculus with 6 samples.

Results

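Imprinted genes are read from only 1 of the 2 parental copies, and many of them are strongly expressed in the brain. A group of 10 such genes was followed in the brains of Sgo1-/+ mice and of wild-type (WT) controls: Meg3, Rian, Snrpn, Peg3, Ndn, Nnat, Impact, Dlk1, Plagl1 and Igf2. They are 10 of the 38087 genes in the deposited table. They were chosen by name rather than by a cutoff on their values, though with earlier results of these data known. For 9 of them the table lists the symbol itself, and Rian was found by its Ensembl identifier ENSMUSG00000097451, which the table lists under the clone name AC152063.2.

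Shugoshin-1, encoded by Sgo1, protects the cohesin that holds sister chromatids together, and the Sgo1-/+ mice carry 1 disrupted allele. The WT and Sgo1-/+ mice had a C57BL6 background, were 24 months old and received no treatment, and each group was represented by 3 mice with 1 library each. WT replicate 1 and Sgo1-/+ replicate 2 were male and the other 4 mice female. The study's methods describe the frozen brain as cerebrum with cortex and hippocampus but without olfactory bulb, cerebellum and medulla. All WT libraries came from run 258 and all Sgo1-/+ libraries from run 259, so genotype and run cannot be told apart.

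At an imprinted locus, DNA methylation set in the egg or the sperm marks 1 parental copy, and the mark directs which copy is transcribed. Meg3 and Rian are non-coding RNAs made from the maternal copy, whereas the other 8 genes are expressed in the main from the paternal copy. For Igf2 this holds only outside the meninges and the choroid plexus. Imprinted genes are known for their roles in growth, feeding and maternal behaviour, and several are most abundant in the hypothalamus and brain stem. The counts do not separate the parental alleles, so the values below are total levels and do not measure imprinting itself.

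Total estimated counts were 11123917 to 12505561 per library. Counting error matters little for the abundant genes, and a count of 0 allows up to 3 counts. WT replicate 1 stood apart from the other libraries and from the described tissue. Its 17 brain stem markers summed to 384.9 CPM (counts scaled to a library size of 1000000), against 4.89 to 9.08 CPM in the other 5 libraries, and its 13 cerebellar markers summed to 3927 CPM against 939 to 1190 CPM. Its 12 cortex and hippocampus markers summed to 787 CPM, against 1770 to 2074 CPM in the other 5 libraries. Each comparison below was therefore also made without WT replicate 1. That library was the only male of the WT group, so these comparisons set female WT mice against a group that still includes a male. Sgo1-/+ replicate 3 differed in make-up as well. The 8 oligodendrocyte markers summed to 11210 CPM in this library and to 11865 CPM in WT replicate 1, against 4493 to 6491 CPM in the remaining libraries. Where 3 values of a group are listed, they follow the replicate numbers. Expression of Sgo1 itself was 0 to 7 estimated counts per library and did not pass the filter on low counts, so the genotype could not be checked from it.

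For none of the 10 genes did a difference between the genotypes pass the test. All 10 passed the filter on low counts, and 0 of 10 had an unadjusted p under 0.05 (edgeR quasi-likelihood test), where 2.04% of the 16337 genes tested did. No gene of the 16337 had an adjusted p under 0.05 (0.0%) by this test, 333 had an unadjusted p under 0.05, and the adjusted threshold was passed by 3 genes with DESeq2 and by 2 with edgeR's likelihood ratio test. For 0 of the 10 genes were the WT and Sgo1-/+ values free of overlap, against 6.81% of all genes tested. The log2 fold change was negative for 7 of the 10 and positive for 3, with a median of -0.06 beside -0.00069 over all genes tested. Of the 16337 genes tested, 8138 had a positive value. Without WT replicate 1 the count was again 0 of 10 under an unadjusted p of 0.05, where 3.77% of all genes passed. The adjusted p of each of the 10 genes was 0.9999 (edgeR quasi-likelihood test, Benjamini-Hochberg), and an exact two-sided permutation test with 3 libraries per group cannot give a p below 0.1. In bulk RNA of this kind, fewer cells of a type and less RNA per cell cannot be told apart.

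**Figure D1:**
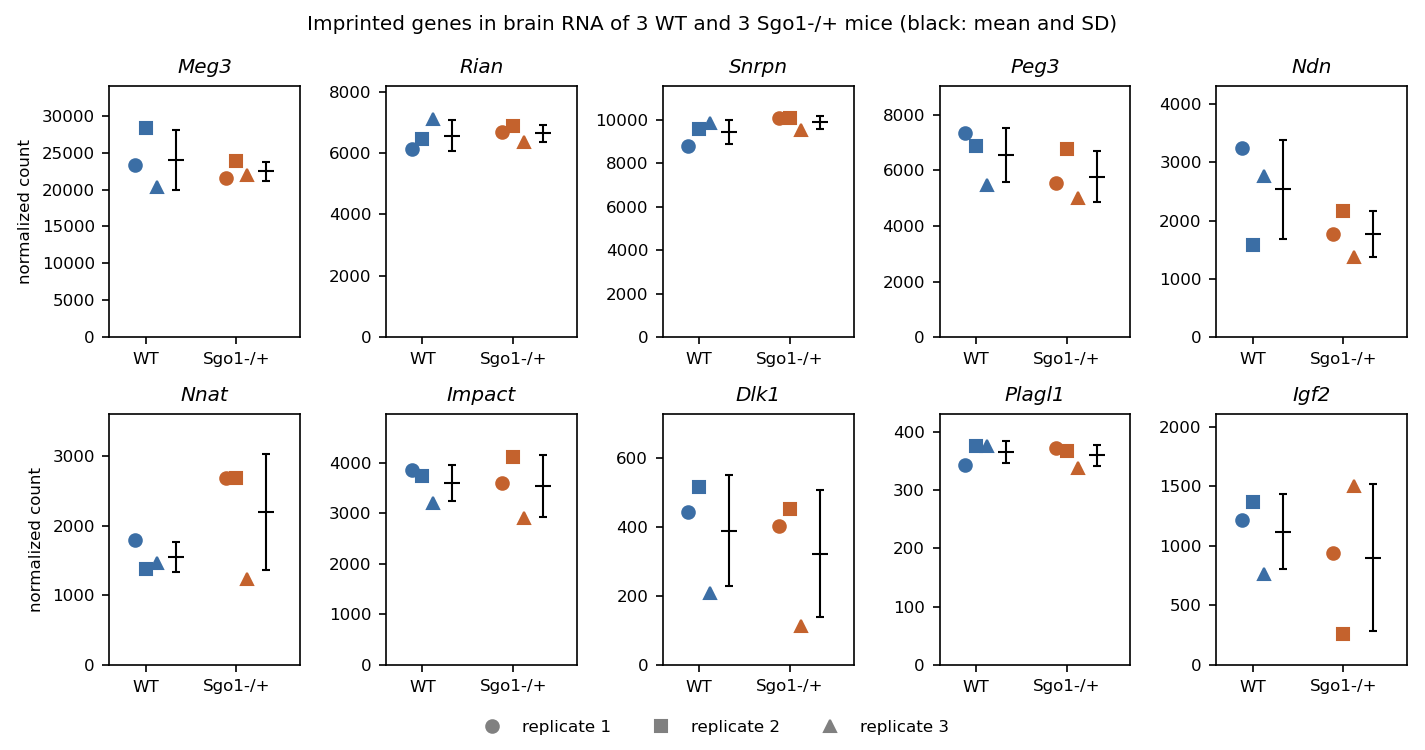
Normalized counts (linear axes from 0) of the 10 imprinted genes in each library, with WT in blue and Sgo1-/+ in orange. Marker shapes give the replicate number, and black bars give the group mean and SD of 3 libraries. The groups overlap for each gene, and Dlk1 and Igf2 spread over a 4.64-fold and a 5.70-fold range.

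The genes differed in how steady they were across libraries. For the neuronal genes Snrpn, Rian and Meg3, the coefficient of variation over the 6 libraries was 4.88%, 5.47% and 12.1%. Among neuronal genes that are also high in hypothalamus and brain stem, it was 12.5% for Impact, 15.3% for Peg3, 34.0% for Ndn and 34.9% for Nnat. Of the 2 genes known best from hypothalamus or hindbrain, Plagl1 had 4.67% and Dlk1 44.7%, and the meningeal gene Igf2 had 45.1%. Ranked by the SD of log2 CPM among all genes tested, Plagl1 had a smaller spread than most, with 2.52% of the genes below it, while 94.2% lay below Dlk1 and 95.3% below Igf2.

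Meg3, a long non-coding RNA of the Dlk1-Dio3 cluster that is abundant in neurons, lies at chr12:109541001-109571726 on the plus strand (mm10). Its normalized counts were 23341, 28363 and 20387 in WT against 21517, 23891 and 21933 in Sgo1-/+. WT replicates 2 and 3 were the highest and the lowest of the 6, so that the Sgo1-/+ values lay inside the WT range. Between the genotypes, the log2 fold change was -0.10 ± 0.17 (SE, n = 3 and 3; edgeR p = 0.574, exact permutation p = 0.7), and -0.12 ± 0.15 without WT replicate 1.

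Rian, the non-coding RNA that follows Meg3 in the same cluster and hosts small nucleolar RNAs, lies at chr12:109603945-109661709 on the plus strand. It had 6126, 6475 and 7113 normalized counts in WT against 6673, 6894 and 6359 in Sgo1-/+. The lowest value was that of WT replicate 1, and all 6 lay within a 1.16-fold range. For Sgo1-/+ against WT, the log2 fold change was 0.015 ± 0.12 (SE; edgeR p = 0.900, exact permutation p = 0.9), and -0.03 ± 0.10 without WT replicate 1.

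Within a library Meg3 exceeded Rian in estimated counts by 2.87- to 4.38-fold. Both extremes were WT libraries, replicates 3 and 2, whereas the Sgo1-/+ ratios of 3.22, 3.47 and 3.45 lay close together. The mean log2 ratio was 1.86 ± 0.31 (SD, n = 3) for WT against 1.76 ± 0.06 (SD, n = 3) for Sgo1-/+ (exact permutation p = 0.7, adjusted p = 0.9 over 6 ratios).

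Snrpn encodes SmN, a core protein of the spliceosome that neurons use in place of the closely related SmB. The deposited span, chr7:59982495-60140219 on the minus strand, contains the upstream exons as well as the coding ones. The promoter window of the Snrpn start with the most CpG among its 4 annotated starts is printed here with that of Plagl1, since these were among the steadiest genes, and with those of Peg3 and Dlk1, which varied together across libraries. Each runs 5′ to 3′ in the direction of transcription from 250 bases before to 50 bases after a RefSeq start (GRCm38.p6), and capitals mark CpG, the dinucleotide that carries the methylation of imprinted loci.
Snrpn: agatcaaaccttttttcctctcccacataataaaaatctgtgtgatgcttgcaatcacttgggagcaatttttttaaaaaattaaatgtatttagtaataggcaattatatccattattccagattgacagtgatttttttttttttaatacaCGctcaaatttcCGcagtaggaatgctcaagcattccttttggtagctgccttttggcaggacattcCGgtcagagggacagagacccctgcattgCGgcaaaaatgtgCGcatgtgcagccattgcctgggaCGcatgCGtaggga
Plagl1: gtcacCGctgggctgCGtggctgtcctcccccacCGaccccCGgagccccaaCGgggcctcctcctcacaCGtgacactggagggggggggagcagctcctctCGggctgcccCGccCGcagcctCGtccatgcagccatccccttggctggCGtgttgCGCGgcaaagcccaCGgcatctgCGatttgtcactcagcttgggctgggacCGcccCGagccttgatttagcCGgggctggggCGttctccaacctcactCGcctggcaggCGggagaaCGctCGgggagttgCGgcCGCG
Peg3: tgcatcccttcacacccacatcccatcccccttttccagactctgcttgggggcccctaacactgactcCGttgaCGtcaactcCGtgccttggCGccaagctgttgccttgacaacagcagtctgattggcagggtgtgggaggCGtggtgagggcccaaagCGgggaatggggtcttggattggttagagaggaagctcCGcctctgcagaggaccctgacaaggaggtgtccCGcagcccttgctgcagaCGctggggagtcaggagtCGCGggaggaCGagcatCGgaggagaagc
Dlk1: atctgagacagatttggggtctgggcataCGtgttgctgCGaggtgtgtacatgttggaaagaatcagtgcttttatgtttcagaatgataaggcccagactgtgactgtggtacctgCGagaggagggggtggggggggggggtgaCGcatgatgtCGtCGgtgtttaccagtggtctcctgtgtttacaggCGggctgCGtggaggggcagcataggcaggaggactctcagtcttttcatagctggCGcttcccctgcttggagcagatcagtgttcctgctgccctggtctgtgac

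The Plagl1 window, chr10:13090582-13090881 on the plus strand, held 26 CpG, a number that 16.9% of the 32851 windows in the RefSeq table reached. The Peg3 window, chr7:6730370-6730669 on the minus strand, held 13 CpG, reached by 37.9%. The Dlk1 window, chr12:109452573-109452872 on the plus strand, held 9, reached by 45.8%, and the Snrpn window, chr7:60005150-60005449 on the minus strand, held 7, which is the median of all windows. The steady Plagl1 and Snrpn thus had the most and the fewest CpG of the 4 windows. The letters TGCCGC, the core that the imprint-protecting factor ZFP57 reads when methylated, were searched on both strands and occurred in 11.6% of all windows. Of the 4 windows, those of Plagl1 and Snrpn held them once each. They did not go with steadiness over all windows of the 10 genes, since they also occurred once in the Nnat window, in 1 of the 2 Meg3 windows and in 1 of the 4 Igf2 windows, and neither in the Rian window nor in the other 3 Snrpn windows. Of the 10 genes, 9 were matched to this table by symbol, and no methylation was measured.

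Snrpn had 8806, 9565 and 9861 normalized counts in WT against 10051, 10061 and 9536 in Sgo1-/+. WT replicate 1 was the lowest, and the lowest Sgo1-/+ value, of replicate 3, lay below 2 of the 3 WT values. edgeR gave a log2 fold change of 0.07 ± 0.12 (SE; p = 0.568, exact permutation p = 0.3), and 0.03 ± 0.09 without WT replicate 1. Snurf, whose exons lie in the same transcripts, was listed at 0 in all libraries, and reads of the pair cannot be divided between the entries. Snrpb, which encodes SmB, had 602 to 823 normalized counts, with a log2 fold change of -0.13 ± 0.14 (SE; edgeR p = 0.408, exact permutation p = 0.4).

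Peg3 encodes a zinc finger protein known for its part in maternal care and lies at chr7:6703892-6730421 on the minus strand. Its normalized counts were 7346, 6865 and 5479 in WT against 5551, 6768 and 4996 in Sgo1-/+. In both groups replicate 3 was the lowest, and the groups overlapped. The log2 fold change was -0.19 ± 0.17 (SE; edgeR p = 0.319, exact permutation p = 0.3), which became -0.10 ± 0.16 without WT replicate 1.

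Impact, named for its imprinting, encodes an inhibitor of signaling through the stress kinase GCN2. It lies at chr18:12972252-12992948 on the plus strand and had 3854, 3735 and 3196 normalized counts in WT against 3603, 4108 and 2896 in Sgo1-/+. Replicate 3 was again the lowest of its group in each genotype. Between the genotypes, the log2 fold change was -0.02 ± 0.16 (SE; edgeR p = 0.886, exact permutation p = 0.9), and 0.03 ± 0.16 without WT replicate 1.

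Ndn encodes necdin, a protein of postmitotic neurons in the region that is lost in Prader-Willi syndrome, and lies at chr7:62348277-62349928 on the plus strand. It had 3251, 1586 and 2765 normalized counts in WT against 1768, 2162 and 1368 in Sgo1-/+. WT replicates 1 and 3 were above all other libraries, while WT replicate 2 was below 2 of the 3 Sgo1-/+ libraries. The log2 fold change of -0.52 ± 0.29 (SE) was the most negative of the 10, with an edgeR p of 0.114 and an exact permutation p of 0.3. Without WT replicate 1, whose Ndn was the highest, it was -0.30 ± 0.26 (SE), and without WT replicate 2 it was -0.77 with an unadjusted edgeR p of 0.0129 (adjusted p = 0.983). The call at an unadjusted p thus changed with the WT library left out.

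Snrpn and Ndn share the Prader-Willi imprinting center, yet their ratio was not fixed. Snrpn exceeded Ndn in estimated counts by 2.71-, 6.03- and 3.57-fold in WT against 5.68-, 4.65- and 6.97-fold in Sgo1-/+. The mean log2 ratios of 1.95 ± 0.59 (SD, n = 3) for WT against 2.51 ± 0.29 (SD, n = 3) for Sgo1-/+ did not differ beyond this spread (exact permutation p = 0.3, adjusted p = 0.9). The difference of 0.55 became 0.30 without WT replicate 1.

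Nnat encodes neuronatin, a small membrane protein of developing and hypothalamic neurons, and lies at chr2:157560078-157562522 on the plus strand, inside the Blcap locus of the opposite strand. Its normalized counts were 1795, 1383 and 1470 in WT against 2685, 2687 and 1233 in Sgo1-/+. Sgo1-/+ replicates 1 and 2 were above every WT library, whereas Sgo1-/+ replicate 3 was the lowest of all 6. The log2 fold change of 0.51 ± 0.30 (SE) was the most positive of the 10, with an edgeR p of 0.134 and an exact permutation p of 0.4, and it was 0.63 ± 0.31 without WT replicate 1 (edgeR p = 0.0824). Leaving out Sgo1-/+ replicate 3 raised it to 0.79 with an unadjusted edgeR p of 0.00253 and an adjusted p of 0.9997.

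Blcap had 913 to 1237 normalized counts, with the highest value in WT replicate 1 and the lowest in Sgo1-/+ replicate 3. The ratio of Nnat to Blcap was 1.45, 1.28 and 1.35 in WT against 2.62, 2.25 and 1.35 in Sgo1-/+. The ratio in Sgo1-/+ replicate 3 lay within the WT range, and the mean log2 ratios of 0.44 ± 0.09 and 1.00 ± 0.50 (SD, n = 3 each) were not told apart by the test (exact permutation p = 0.3, adjusted p = 0.9).

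**Figure D2:**
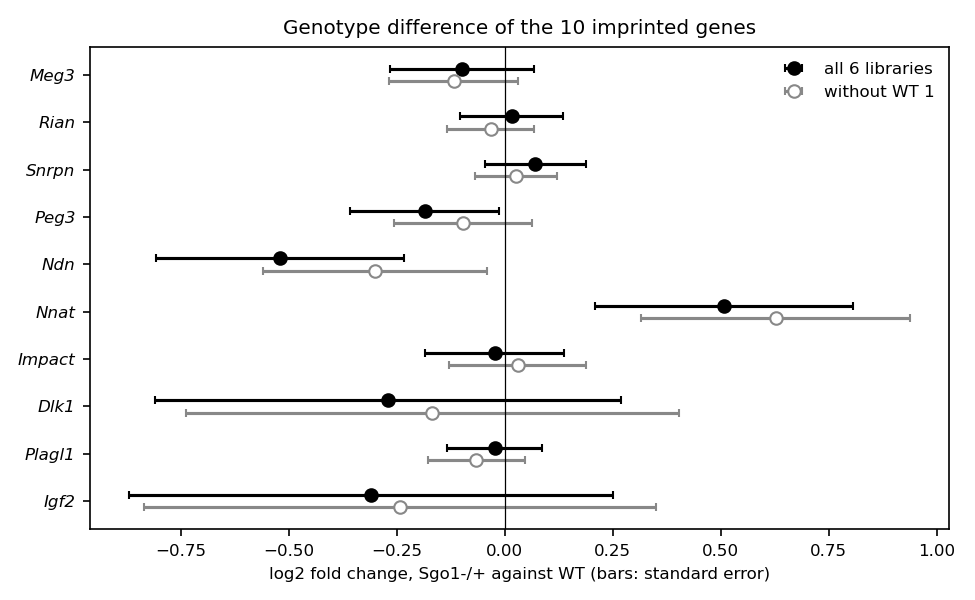
Log2 fold change of Sgo1-/+ against WT for the 10 genes, with standard errors from edgeR, from all 6 libraries (filled) and without WT replicate 1 (open). Ndn at -0.52 and Nnat at 0.51 lie farthest from 0, and Dlk1 and Igf2 have the widest bars.

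Dlk1 encodes a Notch-related membrane protein found in adult brain mainly in hypothalamic and midbrain neurons, and lies at chr12:109452823-109463336 on the plus strand. Its normalized counts were 443, 517 and 208 in WT against 404, 453 and 112 in Sgo1-/+. Replicate 3 of each genotype stood below the other 4 libraries, which lay between 404 and 517. For Sgo1-/+ against WT, the log2 fold change was -0.27 ± 0.54 (SE; edgeR p = 0.633, exact permutation p = 0.6). It was -0.17 ± 0.57 without WT replicate 1 and became positive, at 0.14, when Sgo1-/+ replicate 3 was left out.

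Its neighbor Meg3 varied less in these 2 libraries, although WT replicate 3 was also the lowest library for Meg3. Relative to the median of the 6 libraries, the log2 level of WT replicate 3 was -1.03 for Dlk1 and -0.15 for Meg3, and that of Sgo1-/+ replicate 3 was -1.93 and -0.05. Meg3 exceeded Dlk1 in estimated counts by 97.8-fold in WT replicate 3 and 195.8-fold in Sgo1-/+ replicate 3, against 52.6- to 54.8-fold in the other 4. The mean log2 ratio was 6.04 ± 0.50 (SD, n = 3) for WT against 6.35 ± 1.09 (SD, n = 3) for Sgo1-/+ (exact permutation p = 0.8, adjusted p = 0.9).

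Hypothalamic transcripts varied between libraries too, but not all in step with Dlk1. The 18 hypothalamic markers summed to 34.2, 96.0 and 54.2 CPM in WT against 106.1, 86.3 and 46.0 CPM in Sgo1-/+. Oxt, the oxytocin precursor, had 369, 60.9, 381 and 237 normalized counts in WT replicates 2 and 3 and Sgo1-/+ replicates 1 and 2, and 1.01 and 5.12 in WT replicate 1 and Sgo1-/+ replicate 3. Pmch, the precursor of melanin-concentrating hormone, reached 274 in Sgo1-/+ replicate 3 and was at 1.0 to 19.3 in the other libraries. WT replicate 1, in which Oxt was near 0, had a Dlk1 value within the range of the 3 libraries richest in Oxt. Of the 18 markers, 2 to 11 were at or under 3 counts in a library, and their part in the Dlk1 values was not tested.

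Plagl1, a zinc finger regulator of growth also known as Zac1, lies at chr10:13090691-13131694 on the plus strand and was the steadiest of the 10 genes. It had 343, 376 and 376 normalized counts in WT against 373, 367 and 339 in Sgo1-/+. The 6 values lay within a 1.11-fold range. edgeR gave a log2 fold change of -0.02 ± 0.11 (SE; p = 0.835, exact permutation p = 0.5), and -0.07 ± 0.11 without WT replicate 1.

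Igf2, which encodes insulin-like growth factor 2, is made in the adult brain chiefly by the meninges and the choroid plexus rather than by neurons, and lies at chr7:142650766-142666816 on the minus strand. Its normalized counts were 1219, 1367 and 765 in WT against 939, 263 and 1501 in Sgo1-/+. Both the lowest and the highest library were Sgo1-/+, so that the WT values lay inside the Sgo1-/+ range. The log2 fold change was -0.31 ± 0.56 (SE; edgeR p = 0.597, exact permutation p = 0.7). Leaving out WT replicate 1 gave -0.24 ± 0.59, and leaving out Sgo1-/+ replicate 2 gave 0.12. These are the male libraries, and with the females only the log2 fold change was 0.20. Of the Igf2 exon bases, 64.5% are also assigned to a read-through gene or to the antisense Igf2os in the GENCODE annotation, and Igf2os itself was at 0 to 13.3 normalized counts.

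The library with the least Igf2 was also the poorest in meningeal transcripts. The 12 meningeal fibroblast markers summed to 157.1, 150.8 and 126.1 CPM in WT against 116.1, 46.3 and 100.3 CPM in Sgo1-/+, and 10 of the 12 were lowest in Sgo1-/+ replicate 2. Col1a2, a fibrillar collagen of these cells, had 358, 251 and 171 normalized counts in WT against 155, 52.7 and 172 in Sgo1-/+. The meningeal sums of the 2 genotypes did not overlap, since the lowest WT library, replicate 3, was above the highest Sgo1-/+ library. The sums were apart without WT replicate 1 too. Of the 12 markers, 0 were higher and 1 lower in Sgo1-/+ at an unadjusted p under 0.05 (edgeR quasi-likelihood test). Over all genes tested, 1.23% were lower at this threshold, and 3.57% had groups apart with the lower values in Sgo1-/+. These are shares of single genes, and no share of summed lists was counted. The median log2 fold change of the 12 was -0.66. Sums of the 8 microglia markers were apart in the other direction, at 374 to 446 CPM in WT against 455 to 538 CPM in Sgo1-/+.

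The choroid plexus markers differed far more between libraries and in another order. The 10 markers summed to 1798, 650 and 56.3 CPM in WT against 109.6, 34.4 and 2056 CPM in Sgo1-/+. Ttr, the transthyretin of choroid plexus epithelium, ranged from 113 normalized counts in Sgo1-/+ replicate 2 to 21819 in Sgo1-/+ replicate 3, which was also the library with the most Igf2. Igf2 was 0.501 to 0.749 of the summed meningeal counts in WT, and 0.667, 0.467 and 1.23 in Sgo1-/+. The mean log2 ratios to the meningeal sum were -0.69 ± 0.29 and -0.46 ± 0.71 (SD, n = 3 each; exact permutation p = 0.8, adjusted p = 0.9). The mean log2 ratios to the choroid plexus sum were -2.17 ± 2.18 and -1.74 ± 2.00 (SD, n = 3 each; exact permutation p = 0.9, adjusted p = 0.9), and this difference turned from 0.43 to -0.56 without WT replicate 1. The ratio of Igf2 spanned 0.467 to 1.23 for the meningeal sum and 0.0562 to 1.12 for the choroid plexus sum, which itself had the far wider range. Igf2, the meningeal sum and the choroid plexus sum were all lowest in Sgo1-/+ replicate 2, while in Sgo1-/+ replicate 3, the library richest in Igf2, the choroid plexus sum was the highest and the meningeal sum the second lowest. The part of either tissue in the Igf2 values was not tested.

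**Figure D3:**
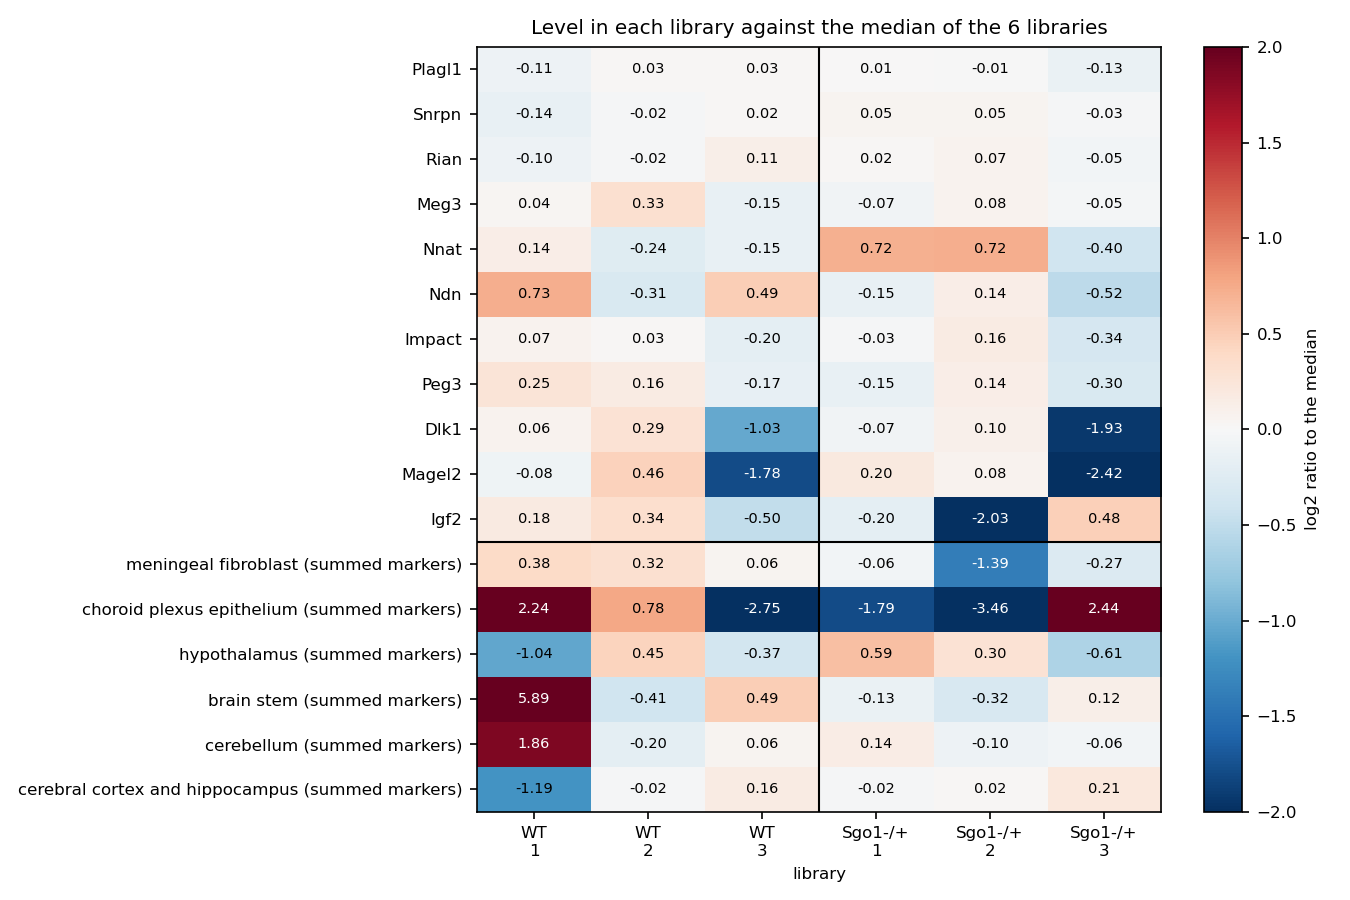
Log2 ratio of each library to the median of the 6 libraries, for the normalized counts of the 10 genes and Magel2 and for summed CPM of 6 marker lists, with the ratio printed in each cell and colors ending at -2 and 2. Dlk1 and Magel2 are low in replicate 3 of both genotypes, Igf2 and both the meningeal and the choroid plexus lists are lowest in Sgo1-/+ replicate 2, and the brain stem and cerebellar lists are high in WT replicate 1.

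General neuronal transcripts varied less than these. The 10 pan-neuronal markers summed to 7470 to 10095 CPM in WT against 8985 to 9218 CPM in Sgo1-/+, with 0 of 10 at an unadjusted p under 0.05. Snap25, the synaptic SNARE protein, had 32023 to 46025 normalized counts in WT against 35342 to 41505 in Sgo1-/+.

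Per exon length the median level ran from 4.20 for Plagl1 to 373 for Snrpn. In RPKM (CPM divided by exon length in kilobases, the level scale used here for comparing genes), the median over 6 libraries was 373 for Snrpn, 104 for Meg3, 98.6 for Ndn, 73.9 for Nnat and 73.3 for Impact. It was 38.3 for Peg3, 29.9 for Rian, 15.6 for Igf2, 6.20 for Dlk1 and 4.20 for Plagl1. Snrpn was above Meg3, Impact above Peg3 and Rian above Igf2 in every library with no overlap of the ranges, whereas the other neighbors in this order overlapped. The place of Dlk1 above Plagl1 held in 4 of 6 libraries and was turned in replicate 3 of both genotypes. Exon lengths were taken as the union of annotated exons inside the deposited span, 2159 bases for Snrpn and 18089 for Meg3. Genes with long, rarely used exons thus come out low. The Snrpn length is that of the GENCODE gene of this name, since GENCODE gives the deposited identifier to a read-through gene.

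**Figure D4:**
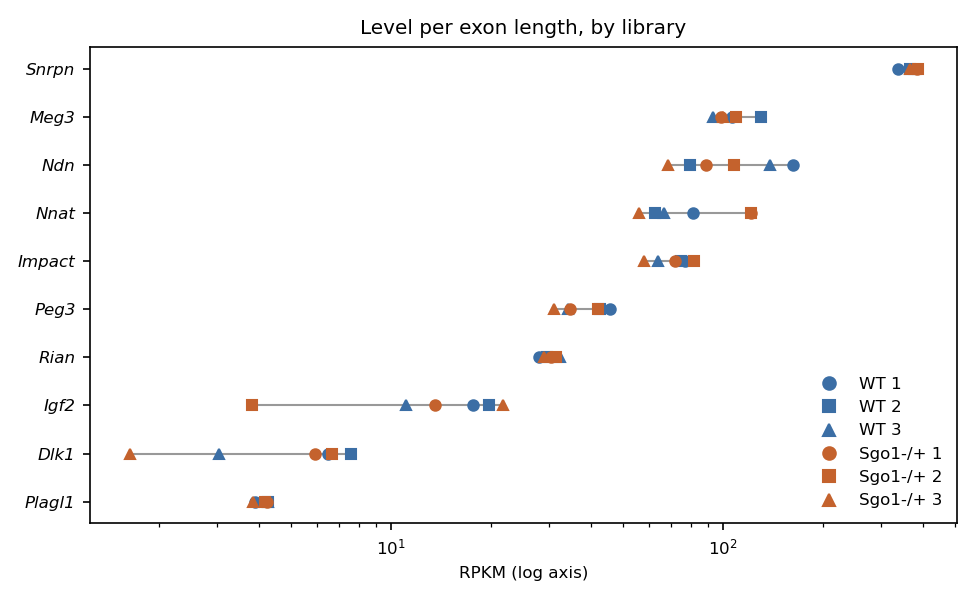
RPKM (log axis) of the 10 genes in each library, ordered by the median, with WT in blue and Sgo1-/+ in orange and shapes for the replicate number. The Snrpn values stand above all others at 338 to 386 RPKM, and the Igf2 and Dlk1 values spread from 3.81 to 21.7 and from 1.63 to 7.57 RPKM.

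Over the 6 libraries, Pearson's r of log2 CPM was 0.94 between Impact and Dlk1, 0.87 between Peg3 and Impact and 0.84 between Peg3 and Dlk1. Rian and Snrpn had r = 0.83, and the most negative pair was Nnat and Igf2 at -0.69. These 6 points share the make-up of each library, including the tissue differences above, and are given as a description.

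Among 15886 other genes with a mean of at least 1 CPM, those most like Dlk1 by this measure were Ampd3 at 0.99, Rwdd2a at 0.99 and AW551984 at 0.99. AW551984 had 340, 384 and 141 normalized counts in WT against 275, 399 and 51.2 in Sgo1-/+, with the same low replicate 3 in both genotypes. It was picked for its likeness to Dlk1 over these 6 libraries, so the shared pattern follows from the choice. Most like Igf2 were Eva1c at 0.99, Zfp958 at 0.98 and Tekt1 at 0.98, of which Tekt1, a tektin of cilia, had 26.2, 28.6 and 20.3 normalized counts in WT against 22.8, 7.09 and 40.9 in Sgo1-/+. Most like Meg3 were Copb1, Usp42 and Ube2q1, each at 0.99, and their ranges were narrow, as in Copb1 with 803 to 936 normalized counts.

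A wider set of imprinted genes was counted in the same way. Of 81 further imprinted genes listed, 72 had an entry in the table and 60 passed the filter on low counts. Of the 60, 0 were higher and 1, Airn, was lower in Sgo1-/+ at an unadjusted p under 0.05, where 1.23% of all genes tested were lower (edgeR quasi-likelihood test), and 0 of 60 passed the adjusted threshold. The median log2 fold change of the 60 was -0.07, and 22 had a positive value, where 8138 of the 16337 genes tested did. Of the 60, 2 had groups that did not overlap, Airn and Mkrn3, both lower in Sgo1-/+, where 3.57% of all genes tested were.

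Airn, the paternally expressed non-coding RNA that silences Igf2r on its own chromosome in many tissues, lies at chr17:12741311-12860122 on the plus strand, in part antisense to Igf2r. It had 71.5, 35.2 and 35.5 normalized counts in WT against 16.9, 16.2 and 16.4 in Sgo1-/+. Every Sgo1-/+ library was below every WT library, and WT replicate 1 was the highest. Between the genotypes, the log2 fold change was -1.52 ± 0.37 (SE; edgeR p = 0.0049, adjusted p = 0.9999, exact permutation p = 0.1, the smallest possible). Without WT replicate 1 it was -1.09 ± 0.33 (SE), with an adjusted edgeR p of 0.9995. The library kit does not mark the strand, so reads of Airn and of unspliced Igf2r RNA cannot be told apart where the genes overlap. Igf2r, named here for this overlap after its values were seen, had 651, 618 and 611 normalized counts in WT against 523, 613 and 572 in Sgo1-/+, with a log2 fold change of -0.14 ± 0.11 (SE; edgeR p = 0.235, exact permutation p = 0.2).

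Of the genes next to the 10 at their loci, 16 had an entry. Mkrn3, a ring finger protein gene beside Ndn, had 20.1, 22.9 and 25.4 normalized counts in WT against 13.9, 12.2 and 16.4 in Sgo1-/+. The groups did not overlap, and the log2 fold change was -0.68 ± 0.30 (SE; edgeR p = 0.0555, exact permutation p = 0.1). Magel2, also beside Ndn and expressed in the hypothalamus, had 82.6, 120.0 and 25.4 normalized counts in WT against 100.3, 92.2 and 16.4 in Sgo1-/+, and so shared the low replicate 3 of Dlk1 in both genotypes. Peg12 ranged from 45.6 to 66.5 normalized counts, Ube3a, a ubiquitin ligase expressed from the maternal copy in neurons, from 805 to 1150, and Atp10a from 155 to 229.

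In the Dlk1-Dio3 cluster Mirg had 97.4 to 222 normalized counts, with the highest value in WT replicate 1, and Rtl1, a retrotransposon-derived gene, had 38.3 to 78.0. Dio3, the enzyme that inactivates thyroid hormone, was at 4.03 to 18.1, and Begain at 839 to 1207. Beside Peg3, Zim1 had 81.6, 68.6 and 41.6 normalized counts in WT against 51.7, 78.0 and 28.6 in Sgo1-/+, lowest in replicate 3 of both genotypes as Peg3 was, and Usp29 had 156 to 266. Around Igf2, the maternally expressed H19 was at 0 to 6.04 normalized counts and Ins2 at 0 to 3.07, and neither passed the filter. Ascl2, with 3.02, 5.71 and 6.09 normalized counts in WT against 0.993, 0 and 0 in Sgo1-/+, did not pass it either.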

How the data were processed

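The authors aligned paired MiSeq reads of TruSeq RNA V2 libraries to mm10 in Strand NGS 2.1 and deposited an estimated count per Ensembl gene without normalization. They also deposited DESeq-normalized log2 values, centered on each gene's median. Further deposited columns hold the authors' own fold changes and were not used. The submitters' processing notes also name BWA and edgeR. The Ensembl release and strand setting are not given in the sources used here.

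Rounded counts went into the quasi-likelihood test of edgeR 4.0.16 without covariates, after its default filter and TMM scaling, and p-values were adjusted over 16337 genes by Benjamini-Hochberg. Normalized counts are counts per TMM-scaled library size times its mean. Exact two-sided permutation tests used all 20 groupings of the libraries, and ratios within a library had 0.5 counts added per gene. The exon lengths came from GENCODE M21. Alternatives were DESeq2 1.42.0, edgeR's likelihood ratio test, limma 3.58.1, other size factors and filters, sex or the replicate number as a term, females only and each library left out. The fits were tested on simulated data.

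The 10 genes, the gene lists and the tests were chosen with earlier results of these data known. Text names the 10 genes, their locus neighbors, other imprinted genes with an unadjusted p under 0.05 or groups apart, defining markers, and the 3 genes most like Igf2, Dlk1 and Meg3. P-values measure the spread between mice, 1 library each. The results of 2 defining markers are not reported here.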

Additional observations from a re-analysis of the deposited data

How the results depend on the processing

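For the 10 genes, 16 alternatives gave 160 fold changes, of which 149 kept their direction and 0 passed an adjusted p under 0.05. The other 11 turned: with the females only, Rian was at -0.058 and Igf2 at 0.20, and with single libraries left out Meg3 ranged from -0.20 to 0.038, Rian from -0.033 to 0.078, Impact from -0.15 to 0.10, Dlk1 from -0.60 to 0.14, Plagl1 from -0.066 to 0.017 and Igf2 from -0.89 to 0.12.

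Genes with an adjusted p under 0.05 numbered 3 with DESeq2's Wald test, 2 with edgeR's likelihood ratio test, 1 with the females only and 0 to 1 with single libraries left out. Those with an unadjusted p under 0.05 numbered 578 with the females only, 563 with no filter, and 240 to 1040 with single libraries left out (626 without WT replicate 1, 1040 without WT replicate 3). Of the 10 genes, 0 to 1 had an unadjusted p under 0.05 with single libraries left out, namely Ndn without WT replicate 2 and Nnat without Sgo1-/+ replicate 3. Groups did not overlap for 0 to 2 of the 10 with single libraries left out (Plagl1 without WT replicate 1, Ndn without WT replicate 2, Peg3 without WT replicate 3, Snrpn and Nnat without Sgo1-/+ replicate 3), and for 1, Plagl1, with the females only. Smaller groups are more often free of overlap, and the share over all genes was not counted in these settings, so no conclusion is drawn from these counts. In the wider imprinted list, genes with an unadjusted p under 0.05 numbered 2 with the females only, 2 with a filter of 10 counts. The number was 2 with limma on DESeq-normalized counts, 2 with limma on the authors' values and 2 with no filter. It was 1 to 2 with single libraries left out. Airn had an unadjusted p under 0.05 in each alternative, with a log2 fold change of -1.69 to -1.08. It passed the adjusted threshold in none, and its lowest adjusted p was 0.647 (edgeR likelihood ratio test).

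The difference in log2 ratio ranged, with single libraries left out, from -0.27 to 0.032 for Meg3 to Rian, from -0.31 to 0.64 for Meg3 to Dlk1, from -0.16 to 0.55 for Igf2 to the meningeal sum and from -0.56 to 1.60 for Igf2 to the choroid plexus sum, which was -1.09 with the females only. With the replicate number as a block, 280 genes and 0 of the 10 had an unadjusted p under 0.05. Same-numbered libraries of the genotypes correlated at -0.15, 0.01 and -0.21, and differently numbered ones at -0.23 to 0.30. Of the 10 genes, Dlk1, Peg3 and Impact were lowest in replicate 3 of both genotypes, and the others were not. With 3 libraries per group, these values cannot decide whether the numbers paired the mice. The cause of the changes between settings was not tested beyond the libraries left out.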

Other observations

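Small RNAs of the imprinted clusters were barely counted. From Dlk1 to Mirg on chromosome 12 the table lists 79 microRNA and small nucleolar RNA genes, of which 45 were at 0 in all libraries and 73 never exceeded 3 estimated counts. The highest single value was 12.5 estimated counts, for Gm23600. From Snrpn to Ndn on chromosome 7 it lists 22 such genes, of which 8 were at 0 in all libraries and the highest value was 6.30.

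Th, encoding tyrosine hydroxylase and named here after its values were seen, had 109, 241 and 280 normalized counts in WT and 183, 65.9 and 35.8 in Sgo1-/+ replicates 1 to 3. Its log2 fold change was -1.14 ± 0.61 (SE; edgeR p = 0.106, exact permutation p = 0.2), and -1.45 ± 0.55 without WT replicate 1 (edgeR p = 0.0317, adjusted p = 0.9995). The 10 olfactory bulb markers include genes of a region outside the described tissue. They summed to 337 to 403 CPM in WT and 105 to 275 CPM in Sgo1-/+. These sums did not overlap, with or without WT replicate 1. Of all single genes tested, 3.57% had groups apart in this direction, and no share of summed lists was counted. The part of these markers in the Th values was not tested.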
